A study of Mus musculus with 18 samples.

Results

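The step from 4 h to 24 h after 2/3 partial hepatectomy, an operation that removes most of the liver and after which the remaining lobes grow, was described in mouse liver RNA as the difference between the 2 libraries of the 24 h group and the 2 of the 4 h group. These 4 libraries were chosen by their titles, out of 18 in the series, and every gene of their tables was considered. Both groups were C57BL/6 mice with the same operation, and they differed in the labels only in the time of collection, 4 h or 24 h. RNA of 3 mice was combined for each library. The step therefore rests on 12 mice and on n = 2 pools in each group for every value below. Age, sex and the hour of the day are not in the labels, and no untreated group of the same hours is named, so that effects of the hour of day and of time since surgery cannot be told apart. The other groups of the series, a sham operation and 0.5, 2, 48, 72, 120 and 168 h after hepatectomy, were used to show where the levels of the step stand. The groups from 2 h on were also used to estimate the spread between pools. Of the sham and 0.5 h groups only sham replicate 1 and 0.5 h replicate 2 have complete tables, so these groups give no such spread.

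The liver answers the loss of tissue in an ordered way. Quiescent hepatocytes first switch on immediate early genes, which encode short-lived transcription factors, and receive cytokine signals such as IL-6, which acts through STAT3 and drives the acute phase response, the output of plasma proteins of inflammation. They then pass through G1 phase under the control of cyclin D, enter S phase, in which E2F factors switch on the genes of DNA replication, and later divide, while they keep up glucose, lipid, urea and bile acid metabolism for the body.

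The 4 tables were complete and held 8076130 and 7810637 reads of named genes at 4 h and 8553852 and 8772978 at 24 h, with 14102 to 14447 genes listed in each. Levels are CPM (reads of a gene per 1000000 reads of the library) after TMM scaling, which sets the median of most genes equal between libraries. The 2 values of a group are always in the order replicate 1, replicate 2. Changes are log2 fold changes of 24 h against 4 h ± SE from edgeR's quasi-likelihood test, fitted on the 16 complete libraries, with p-values adjusted over all 12181 genes tested. A gene is called, and said to have risen or fallen, at an adjusted p under 0.05. These p-values reflect how pools vary rather than how mice vary. An exact two-sided permutation test of 2 pools against 2 could not go below 0.33. TMM factors were 0.776 and 0.821 at 4 h and 1.12 and 1.11 at 24 h. Scaled by library totals alone, the median gene was 0.45 higher at 24 h on the log2 scale, against 0.00 with TMM (-0.0037 before rounding), so that all changes are relative to the median gene. The labelled tissue, liver, was checked on its markers: the 8 hepatocyte markers, albumin among them, summed to 129971 and 138700 CPM at 4 h and 80174 and 68599 CPM at 24 h, and in bulk RNA fewer cells of a type and less RNA per cell cannot be told apart. No source used here gives the strand of the libraries, and reads in exons shared with a neighbouring gene cannot be assigned. At least 20% of the exon bases are shared in Akr1b7, Apoa4, Apoc2, Apoc4, Ccnd1, Irs1, Mid1ip1, Mt2, Nr1i3, Sds and Tuba4a. Members of the Saa, Orm, Mt, Serpina3, Gstm, Ugt2b, Cyp2c, Cyp4a, H2 and tubulin families are alike in sequence, so that the values of single members are uncertain.

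The step called 2732 of 12181 genes, 22.4% of those tested: 1425 were higher at 24 h (11.7%) and 1307 lower (10.7%). The fold was at least 2 in 770 of the higher genes and 680 of the lower. Both 24 h pools lay above both 4 h pools in 30.6% of the genes tested and below them in 28.7%, and this held for each called gene in its own direction. The counts of list members given below are to be read beside these shares of all genes. By library totals alone 4577 genes were higher and 510 lower, so that 90.0% of calls were higher against 52.2% with TMM. With only the 4 libraries in the fit 1270 genes were called, and the count was 1666 without 4 h replicate 1, 1701 if 4 h replicate 2 was left out and 1915 in the absence of 24 h replicate 2. With the first 4 h library left out 848 genes were higher and 818 lower, and with the second 861 and 840. The higher genes numbered 889 without 24 h replicate 2.

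**Figure D1:**
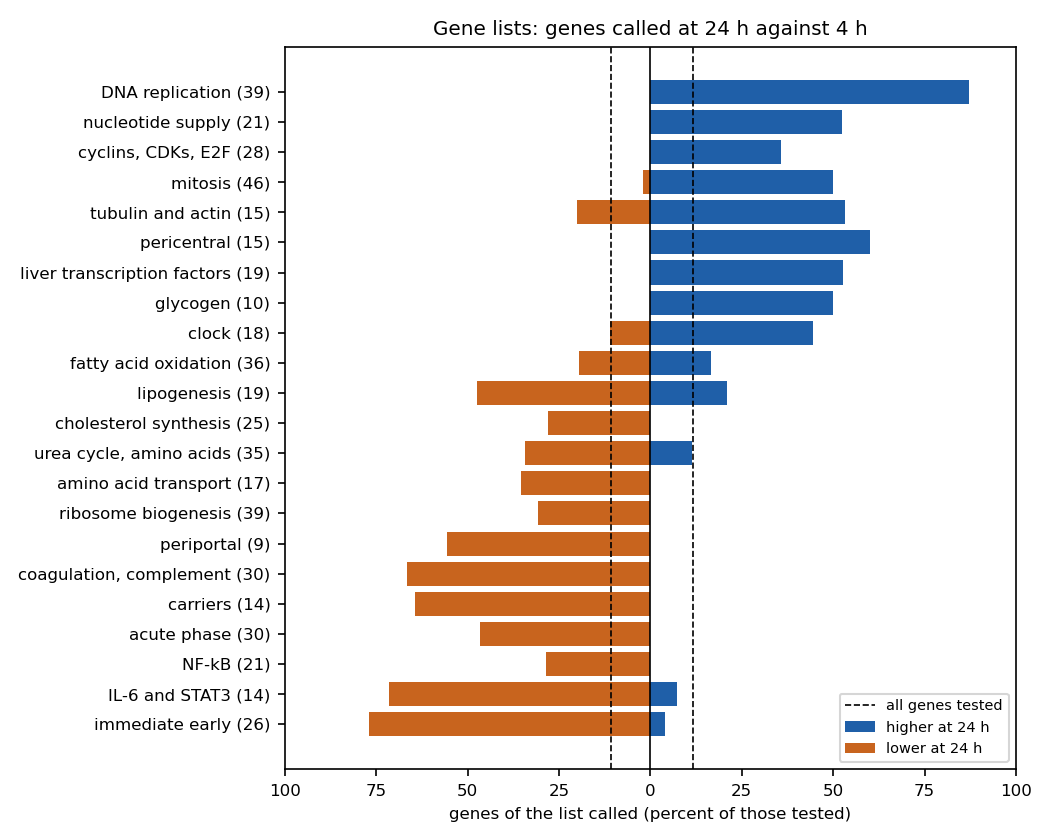
Percent of the tested genes of 22 lists that were called higher (blue, to the right) or lower (orange, to the left) at 24 h against 4 h, with the number tested in brackets. The dashed lines mark all genes tested, 11.7% higher and 10.7% lower; among these lists DNA replication has the longest bar to the right and immediate early genes the longest to the left.

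The genes that changed most came from several systems; they are the 15 with the largest rises and the 15 with the largest falls among called genes with a mean of at least 10 CPM over the 4 libraries. Cyp1a1 (chr9:57687928-57703824), a cytochrome P450 induced through the aryl hydrocarbon receptor, had 0.638 and 0.624 CPM at 4 h and 12.002 and 187 CPM at 24 h. The 4 h pools had 4 reads each, and the 24 h pools differed from each other by more than 10 times (log2 fold change 7.27 ± 1.29, adjusted p = 0.00154). Kcnk5, a potassium channel gene, had 1.28 and 2.18 CPM at 4 h and 21.9 and 22.5 CPM at 24 h and stood at 22.1 CPM in sham replicate 1, so that its 4 h levels were the lowest of the 16 libraries and the 24 h levels were near the sham level (log2 fold change 3.67 ± 0.32, adjusted p = 1.32e-05). Arhgef19, a guanine nucleotide exchange factor gene, had 7.02 and 7.17 CPM at 4 h and 62.2 and 64.8 CPM at 24 h (log2 fold change 3.16 ± 0.16, adjusted p = 3.23e-07). Pcp4l1 had 1.75 and 2.34 CPM at 4 h and 29.2 and 29.2 CPM at 24 h (log2 fold change 3.82 ± 0.38, adjusted p = 2.73e-05). The pools of a time nearly coincided for both genes. Among the 15 largest rises were also 4 genes of DNA replication (Mcm5, Mcm2, Lig1 and Mcm6), the tubulin gene Tuba8, the kinase gene Sgk2, the tight junction gene Tjp3, Apol7a and Sdr9c7, with log2 fold changes of 2.69, 2.54, 2.53, 2.94 and 2.82 for the last 5. Ppp1r3c and Cyp7a1 are described with metabolism below. Cyp1a1 had a log2 fold change of 8.12 with 24 h replicate 1 left out and 4.18 with 24 h replicate 2 left out. Tuba8 had a log2 fold change of 2.10 with 24 h replicate 2 left out. Sdr9c7 had a log2 fold change of 3.74 with 4 h replicate 2 left out.

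The falls included regulators, enzymes and receptors. Tiparp, a target of the aryl hydrocarbon receptor like Cyp1a1, had 203 and 156 CPM at 4 h and 7.72 and 5.55 CPM at 24 h and fell (log2 fold change -4.75 ± 0.35, adjusted p = 3.66e-06), in the opposite direction to Cyp1a1. Pdk4, the kinase that switches off pyruvate dehydrogenase in fasting, had 128 and 177 CPM at 4 h and 8.04 and 8.43 CPM at 24 h (log2 fold change -4.21 ± 0.35, adjusted p = 9.87e-06). Upp2, a uridine phosphorylase gene, had 194 and 236 CPM at 4 h and 16.8 and 10.1 CPM at 24 h (log2 fold change -4.00 ± 0.28, adjusted p = 3.53e-06), and the galactosyltransferase gene B3galt1 had 553 and 908 CPM at 4 h and 39.1 and 47.1 CPM at 24 h (log2 fold change -4.08 ± 0.51, adjusted p = 0.000133). In each of these genes the pools of a time were close to each other beside the distance between the times. Il1rn, the interleukin 1 receptor antagonist, had 312 and 202 CPM at 4 h and 1.77 and 25.6 CPM at 24 h (log2 fold change -4.23 ± 1.11, adjusted p = 0.0152). Cd14, a co-receptor for bacterial lipopolysaccharide, had 177 and 56.9 CPM at 4 h and 1.67 and 14.8 CPM at 24 h (log2 fold change -3.82 ± 0.93, adjusted p = 0.0103); both were lower by far in 24 h replicate 1 than in replicate 2. Others of these falls, with their log2 fold changes, were Ralgds (-4.96), Adcy1 (-4.15), Arid5a (-3.99), the leptin receptor gene Lepr (-3.69) and the bile acid and steroid sulfate transporter gene Slc10a6 (-4.94). Cd28, best known as a co-receptor of T cells, had 20.4 and 19.5 CPM at 4 h and 0.626 and 0.720 CPM at 24 h (log2 fold change -4.86 ± 0.58, adjusted p = 9.68e-05). The 11 matched lymphocyte markers summed to 7.66 and 5.46 CPM at 4 h and to 3.03 and 4.11 CPM at 24 h. Of 5 tested 1 fell, 0 by totals alone, and 0 rose (median -1.24), and 2 had a positive estimate. Among these markers Cd3d, Cd3e and Cd3g had at most 5 reads in any of the 4 libraries. Their part in the fall of Cd28 was not tested. Ralgds had a log2 fold change of -4.31 with 4 h replicate 1 left out. Arid5a had a log2 fold change of -4.69 with 24 h replicate 2 left out. Slc10a6 had a log2 fold change of -5.93 with 24 h replicate 2 left out. Il1rn had a log2 fold change of -3.38 with 24 h replicate 1 left out and -7.20 with 24 h replicate 2 left out. Cd14 had a log2 fold change of -2.78 with 4 h replicate 1 left out, -4.42 with 4 h replicate 2 left out, -3.03 with 24 h replicate 1 left out and -6.15 with 24 h replicate 2 left out. Il1rn was not called without 4 h replicate 1 or 24 h replicate 1 (adjusted p up to 0.0593). Cd14 was not called without 4 h replicate 1 (adjusted p = 0.0831).

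**Figure D2:**
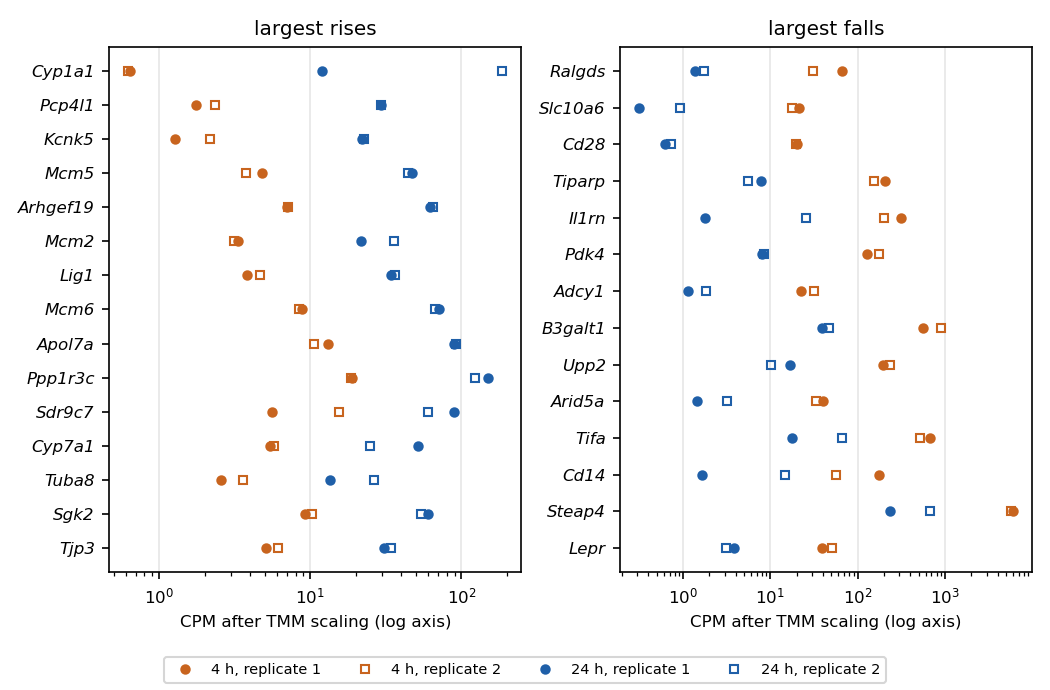
CPM (log axis) of the 15 genes with the largest rises (left) and 14 of the 15 with the largest falls (right) in each of the 4 libraries; orange marks 4 h, blue marks 24 h, filled circles replicate 1 and open squares replicate 2. The 2 colours do not overlap in any gene shown, because genes with overlapping pools were left out of the choice. The blue symbols are widest apart in Cyp1a1, Il1rn and Cd14.

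DNA replication was the list in which the largest share of genes rose. Of 39 tested genes of the replication machinery 34 rose and 0 fell, 87.2% against 11.7% higher over all genes, with a median log2 fold change of 1.69. The MCM helicase opens the double helix at replication origins: Mcm5 had 4.79 and 3.74 CPM at 4 h and 46.97 and 44.4 CPM at 24 h (log2 fold change 3.42 ± 0.35, adjusted p = 3.50e-05). Mcm6 had 8.77 and 8.42 CPM at 4 h and 70.7 and 66.9 CPM at 24 h (log2 fold change 3.00 ± 0.30, adjusted p = 2.73e-05). Mcm2 had 3.35 and 3.12 CPM at 4 h and 21.6 and 35.8 CPM at 24 h (log2 fold change 3.14 ± 0.35, adjusted p = 5.44e-05). The 4 h values lay below those of sham replicate 1, which had 6.11 CPM for Mcm5 and 11.97 CPM for Mcm6. Lig1, the ligase that joins Okazaki fragments, went from 3.83 and 4.68 to 34.1 and 36.2 CPM (log2 fold change 3.04 ± 0.29, adjusted p = 2.39e-05). Rpa1 and Rpa2, subunits of the protein that coats single-stranded DNA, went from 21.4 and 20.7 to 64.4 and 60.6 CPM and from 1.28 and 0.780 to 8.14 and 10.5 CPM, with log2 fold changes of 1.57 ± 0.19 and 3.17 ± 0.34. The 4 h levels of Rpa2 rested on few reads. Pcna, the sliding clamp, was already at 27.3 and 29.5 CPM at 4 h and had 63.7 and 56.2 CPM at 24 h (log2 fold change 1.08 ± 0.20, adjusted p = 0.00225). Of the 5 that were not called, Pola1 had 1.12 and 2.65 CPM at 4 h and 6.37 and 4.53 CPM at 24 h (adjusted p = 0.0955). Orc6 had 4.47 and 4.84 CPM at 4 h and 9.08 and 6.07 CPM at 24 h (adjusted p = 0.120). Gins4 had 15.95 and 15.4 CPM at 4 h and 20.1 and 16.4 CPM at 24 h (adjusted p = 0.456). Without 4 h replicate 1 the count of rises was 21 and with only the 4 libraries in the fit it was 23; 0 replication genes fell in either.

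The promoters of these genes were read from RefSeq (GRCm38.p6) over the 250 bases before the annotated start, and searched on both strands for the E2F site letters TTCCCGC and TTGGCGC. Of 31 tested replication genes with a known promoter 12 held a match (38.7%), among them 9 of the 27 that rose, against 11.4% of 9756 tested genes with a promoter, 13.1% of all genes called higher and 6.45% of the whole table. In 3 lists described below the shares were 3 of 18 for nucleotide supply, 7 of 20 for cyclins, CDKs and E2F and 2 of 11 for DNA repair. Among the genes of these lists that rose they were 1 of 10, 2 of 9 and 1 of 4. The stretches of Mcm5 (chr8:75109333-75109378, plus strand, 176 to 131 bases before the start) and Mcm6 (chr1:128359733-128359826, minus strand, 121 to 28 bases before the start) are shown because these are the helicase genes with 2 matches, in capitals, among the largest rises. They read, on the strand of the gene from 5′ to 3′:
Mcm5: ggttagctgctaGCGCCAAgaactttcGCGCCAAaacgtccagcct
Mcm6: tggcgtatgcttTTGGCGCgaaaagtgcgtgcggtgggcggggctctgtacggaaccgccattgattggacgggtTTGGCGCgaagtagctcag
The windows of Mcm2, Mcm3, Lig1, Pcna and Rrm2, which also rose, hold neither string. A match is a description of the letters and not of binding.

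The supply of nucleotides and the early cell cycle regulators moved with replication, though in smaller shares. Of 21 genes of nucleotide supply 11 rose and 0 fell (median 0.56). Rrm1, the large subunit of ribonucleotide reductase, went from 11.96 and 14.04 to 43.4 and 48.2 CPM (log2 fold change 1.82 ± 0.25, adjusted p = 0.000288), and its partner Rrm2 went from 6.22 and 9.36 to 33.2 and 33.6 CPM (log2 fold change 2.10 ± 0.45, adjusted p = 0.00475). Dut, which removes dUTP, and the salvage kinase gene Dck had log2 fold changes of 1.69 ± 0.27 and 1.57 ± 0.27, while Paics, Mthfd1 and Atic were not called (adjusted p = 0.295, 0.195 and 0.0545). Of 28 cyclin, CDK and E2F genes 10 rose and 0 fell (median 0.71). The E2F genes themselves were among them: E2f1 had 2.87 and 2.50 CPM at 4 h and 11.2 and 14.1 CPM at 24 h (log2 fold change 2.23 ± 0.27, adjusted p = 0.000122). E2f2 had 0.957 and 0.468 CPM at 4 h, levels of few reads, and 8.56 and 10.4 CPM at 24 h (log2 fold change 3.71 ± 0.48, adjusted p = 0.000164). Ccne1, the cyclin of S phase entry, had 3.19 and 2.18 CPM at 4 h and 8.66 and 13.2 CPM at 24 h (log2 fold change 2.02 ± 0.42, adjusted p = 0.00440). Ccnd1, cyclin D1, had 70.3 and 98.1 CPM at 4 h and 142 and 134 CPM at 24 h, and although both 24 h pools were above both 4 h pools it was not called (log2 fold change 0.71 ± 0.25, adjusted p = 0.0614). With only the 4 libraries in the fit each of the lists had 6 rises, and by totals alone nucleotide supply had 19 and the cyclin, CDK and E2F list 20. Of 15 DNA repair genes 6 rose and 0 fell (median 1.36), 13 rose by totals alone, and 3 rose without 4 h replicate 1, 4 h replicate 2 or 24 h replicate 2. E2f2 had a log2 fold change of 4.30 with 4 h replicate 1 left out. Rrm2 was not called without 4 h replicate 1 (adjusted p = 0.0515).

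Genes of mitosis were higher too. Of 46 tested 23 rose and 1 fell (Ube2s, log2 fold change -0.78, adjusted p = 0.0115), with a median of 1.79. Both 24 h pools lay above both 4 h pools in 42 of the 46, against 30.6% of all genes tested. Incenp, a gene of the chromosomal passenger complex, rose from 3.67 and 3.74 to 14.2 and 19.1 CPM (log2 fold change 2.16 ± 0.32, adjusted p = 0.000454). Aurkb, the kinase of that complex, rose from 0.319 and 0.624 to 3.76 and 8.74 CPM (log2 fold change 3.69 ± 0.60, adjusted p = 0.000908). The 4 h levels of Aurkb rested on few reads, so that the size of its rise is uncertain. Foxm1, a transcription factor of mitotic genes, rose from 1.12 and 2.03 to 7.31 and 9.77 CPM (log2 fold change 2.43 ± 0.48, adjusted p = 0.00316). The condensin gene Ncaph rose from 1.75 and 2.18 to 8.56 and 9.67 CPM (log2 fold change 2.20 ± 0.40, adjusted p = 0.00175). In all 4 genes, as in every gene called higher, both 24 h pools lay above both 4 h pools. Cdc20, the activator of the anaphase complex, had 1.60 and 2.18 CPM at 4 h and 6.78 and 9.67 CPM at 24 h and was not called (adjusted p = 0.0601), and it reached 179 and 175 CPM at 48 h. Ccnb1, the mitotic cyclin B1, had 1.44 and 2.81 CPM at 4 h and 4.07 and 3.81 CPM at 24 h (adjusted p = 0.309) and reached 74.3 and 98.7 CPM at 48 h. For both, the 24 h level was far below that of 48 h. Relative to the mean of the 4 h libraries, the median mitosis gene stood at 1.52 and 1.72 (log2) at 24 h and at 3.87 and 4.18 at 48 h, while the median replication gene stood at 1.68 and 1.61 at 24 h and 2.19 and 2.02 at 48 h. The count of 23 was 35 by totals alone, 9 without 4 h replicate 1 and 11 without 24 h replicate 2, and the 4 h pools also differed, with a median log2 difference of 0.62 (replicate 2 minus replicate 1) over the mitosis genes against 0.00 over all genes. Aurkb had a log2 fold change of 2.91 with 24 h replicate 2 left out. Ube2s was not called without 4 h replicate 1 or 24 h replicate 1 (adjusted p up to 0.0561).

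The CHR element, TTTGAA, lay within the 250 bases before the start in 15 of 39 mitosis genes with a promoter (38.5%), against 13.1% of all tested genes with a promoter. Cdk1, the kinase that drives mitosis, is in the cyclin, CDK and E2F list and is not 1 of these 39 genes. It is shown because 2 such elements lie close to its start (chr10:69352913-69352995, minus strand, 83 to 1 bases before the start), in capitals:
Cdk1: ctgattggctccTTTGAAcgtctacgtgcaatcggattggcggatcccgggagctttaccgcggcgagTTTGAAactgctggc
Its transcript had 2.07 and 4.37 CPM at 4 h and 11.4 and 14.8 CPM at 24 h (log2 fold change 2.02 ± 0.41, adjusted p = 0.00334). Plk1, a gene of the mitosis list, holds no such string in this window. Cdk1 had a log2 fold change of 2.65 with 4 h replicate 2 left out.

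**Figure D3:**
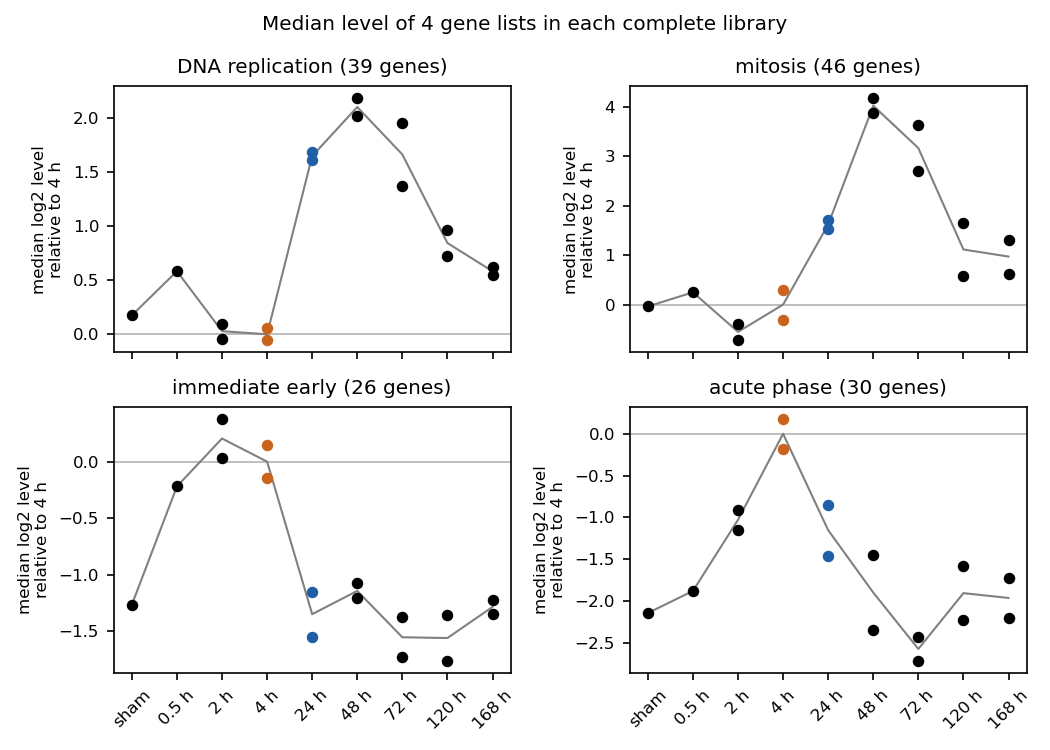
Median over the genes of 4 lists of the log2 level (CPM + 0.25) relative to the mean of the 4 h libraries, for each complete library; points are libraries (orange 4 h, blue 24 h, black others) and the line joins the group means. The replication median is near 0 at 2 h and 4 h and 1.68 and 1.61 at 24 h, the mitosis median rises further to 48 h, and the immediate early and acute phase medians are lower at 24 h than at 4 h.

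Immediate early genes had the largest share of falls. Of 26 tested 20 fell and 1 rose (Dusp6, a phosphatase that acts on ERK, log2 fold change 1.11, adjusted p = 0.00581), 76.9% against 10.7% lower over all genes, with a median of -1.35. Btg2, an antiproliferative gene, had 212 and 232 CPM at 4 h and 15.2 and 23.6 CPM at 24 h (log2 fold change -3.52 ± 0.25, adjusted p = 3.66e-06). Gadd45b, a stress gene, had 10.5 and 9.67 CPM at 4 h and 0.731 and 1.03 CPM at 24 h (log2 fold change -3.50 ± 0.36, adjusted p = 3.95e-05). Jun, a subunit of AP-1, had 53.6 and 54.6 CPM at 4 h and 22.9 and 24.9 CPM at 24 h (log2 fold change -1.18 ± 0.15, adjusted p = 0.000176). Cebpb, a transcription factor of the acute phase, had 134 and 114 CPM at 4 h and 44.7 and 62.4 CPM at 24 h (log2 fold change -1.21 ± 0.18, adjusted p = 0.000468). In these 4 genes the pools of each time lay close together and, as in every called gene, apart from those of the other time. Myc, by contrast, had 18.7 and 15.6 CPM at 4 h and 11.7 and 14.3 CPM at 24 h and was not called (log2 fold change -0.40, adjusted p = 0.364). The count of falls was 14 by library totals alone, 13 with only the 4 libraries and 11 without 4 h replicate 1. Dusp6 was not called without 24 h replicate 2 (adjusted p = 0.0535).

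Genes of the brakes on the cell cycle were mixed. Of 20 CDK inhibitor and p53 target genes 4 fell and 2 rose (30% called against 22.4% of all genes). Cdkn1a, the inhibitor p21, had 481 and 379 CPM at 4 h and 99.1 and 82.9 CPM at 24 h (log2 fold change -2.24 ± 0.26, adjusted p = 9.07e-05). The times did not overlap, as in every called gene, and Cdkn1a stood at 44.5 CPM in sham replicate 1. Plk3 and the stress cytokine gene Gdf15 fell too, with log2 fold changes of -1.60 ± 0.15 and -2.85 ± 0.31, as did Trp53inp1 (log2 fold change -1.64, adjusted p = 0.0134). The 2 rises, Cdkn2d and Bbc3, rested on few reads, Cdkn2d with 0.638 and 1.87 CPM at 4 h and 4.38 and 3.81 CPM at 24 h and Bbc3 with 0.638 and 0.312 CPM at 4 h and 1.15 and 3.81 CPM at 24 h. Mdm2 and Ccng1 were not called (adjusted p = 0.318 and 0.931). The 2 rises numbered 0 without 4 h replicate 1 or with only the 4 libraries, and 1 when any single one of the other 3 was left out. Trp53inp1 was not called without 4 h replicate 2 or 24 h replicate 2 (adjusted p up to 0.101). Cdkn2d was not called without 4 h replicate 1 or 24 h replicate 1 (adjusted p up to 0.159). Bbc3 was not called without 4 h replicates 1 or 2 or 24 h replicate 2 (adjusted p up to 0.276).

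Part of the transcripts of cytokine signalling and its targets were lower at 24 h. In the IL-6 and STAT3 list 10 of 14 genes fell and 1 rose (Tyk2, log2 fold change 0.80, adjusted p = 0.0287), with a median of -1.31. Pim3, a kinase gene switched on by STAT3, had 115 and 139 CPM at 4 h and 19.2 and 24.5 CPM at 24 h (log2 fold change -2.54 ± 0.24, adjusted p = 2.04e-05). Stat3 itself had 402 and 374 CPM at 4 h and 150.5 and 175 CPM at 24 h (log2 fold change -1.25 ± 0.23, adjusted p = 0.00189). Osmr, the oncostatin M receptor, had 45.1 and 34.9 CPM at 4 h and 3.86 and 11.2 CPM at 24 h (log2 fold change -2.41 ± 0.43, adjusted p = 0.00146). Socs3, the feedback inhibitor of the pathway, had 148 and 143 CPM at 4 h and 21.3 and 44.5 CPM at 24 h (log2 fold change -2.14, adjusted p = 0.0218), above the 21.6 CPM of sham replicate 1 in the second 24 h pool. Of 21 genes of the NF-kB list 6 fell, 0 rose and 15 were not called (median -0.82). Il1r1, the receptor of interleukin 1, had 467 and 563 CPM at 4 h and 90.5 and 102 CPM at 24 h (log2 fold change -2.42 ± 0.33, adjusted p = 0.000276). Tifa, an adaptor of the pathway, had 673 and 521 CPM at 4 h and 17.6 and 65.4 CPM at 24 h (log2 fold change -3.84 ± 0.77, adjusted p = 0.00332). Nfkbia, the inhibitor IkB alpha, had 92.5 and 68.9 CPM at 4 h and 41.9 and 49.3 CPM at 24 h (log2 fold change -0.82 ± 0.20, adjusted p = 0.00914). The 24 h pools were not alike here: all 21 NF-kB genes were higher in 24 h replicate 2, with a median log2 difference of 1.35, and the count of falls was 10 without that library, 3 without 24 h replicate 1, 2 without 4 h replicate 1, and 3 with only the 4 libraries or by totals alone. The falls of the IL-6 list numbered 6, 5, 9 and 7 without 4 h replicate 1, 4 h replicate 2, 24 h replicate 1 and 24 h replicate 2. Osmr had a log2 fold change of -3.41 with 24 h replicate 2 left out. Tifa had a log2 fold change of -3.24 with 24 h replicate 1 left out and -5.12 with 24 h replicate 2 left out. Tyk2 was not called without 4 h replicate 1 or 24 h replicate 2 (adjusted p up to 0.322). Socs3 was not called without 4 h replicates 1 or 2 or 24 h replicate 1 (adjusted p up to 0.101). Nfkbia was not called without 4 h replicate 1 (adjusted p = 0.0969).

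The acute phase list held 14 falls and 0 rises among 30 genes, with a median of -1.14. The 3 fibrinogen chain genes fell together: Fga had 38782 and 30241 CPM at 4 h and 9822 and 12875 CPM at 24 h. Fgb had 34826 and 28994 CPM at 4 h and 10332 and 12228 CPM at 24 h. Fgg had 23639.7 and 20941 CPM at 4 h and 6081 and 7204 CPM at 24 h, with log2 fold changes of -1.60 ± 0.29, -1.50 ± 0.26 and -1.75 ± 0.25. Steap4, a metalloreductase gene, had 6059 and 5749 CPM at 4 h and 235 and 678 CPM at 24 h (log2 fold change -3.69 ± 0.74, adjusted p = 0.00332). Serpina3c went from 12.4 and 5.46 to 1.15 and 1.13 CPM. Other acute phase genes were not called although all of them had a negative estimate: Saa1, serum amyloid A, had 16205 and 11684 CPM at 4 h and 4183 and 6570.0 CPM at 24 h (adjusted p = 0.136). Lcn2, lipocalin 2, had 5799.5 and 3577 CPM at 4 h and 2984 and 4494 CPM at 24 h (adjusted p = 0.792). Hp, haptoglobin, had 17303 and 12591 CPM at 4 h and 6835 and 10162 CPM at 24 h (adjusted p = 0.123). Lcn2 and Saa1 stood at 83.2 CPM and 901 CPM in sham replicate 1, so that their 24 h levels were still above that library. Together the 30 genes took 23.2% and 19.5% of the reads at 4 h and 12.5% and 15.8% at 24 h. Again 24 h replicate 2 was the higher pool, in 28 of 30 genes, and the count of falls was 8 when either 4 h replicate 1 or 24 h replicate 1 was left out, 9 by totals alone and 17 without 24 h replicate 2. Steap4 had a log2 fold change of -4.69 with 24 h replicate 2 left out. Serpina3c had a log2 fold change of -2.25 with 4 h replicate 1 left out.

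STAT sites, TTCNNNGAA, were found before the start of 7 of 24 acute phase genes with a promoter (29.2%), of 5 of the 11 that fell, and of 7.34% of all tested genes with a promoter. In the IL-6 list 1 of 13 held a match, at a start inside the annotated span of the gene (chr11:117966079-117970336). That gene, Socs3 (chr11:117969500-117969532, minus strand), and the fibrinogen gene Fgb (chr3:83050005-83050037, minus strand) are shown with the match in capitals, since both fell:
Socs3: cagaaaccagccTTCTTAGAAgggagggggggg
Fgb: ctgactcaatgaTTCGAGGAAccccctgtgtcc

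Metallothionein genes fell and iron genes changed in both directions. Of 9 metallothionein and zinc genes 4 fell and 0 rose. Mt1, a small protein that binds zinc and copper, had 4610.4 and 3215 CPM at 4 h and 238 and 547 CPM at 24 h (log2 fold change -3.32 ± 0.90, adjusted p = 0.0181). Its neighbour Mt2 had 3195 and 2658 CPM at 4 h and 128 and 352 CPM at 24 h (log2 fold change -3.61 ± 0.97, adjusted p = 0.0176). The zinc importer gene Slc39a14 had 1080.0 and 952 CPM at 4 h and 178 and 210.2 CPM at 24 h (log2 fold change -2.39 ± 0.32, adjusted p = 0.000212). The metal response element letters TGCACNC and TGCGCNC were found before the start in 5 of the 7 genes of this list with a promoter and in 33.6% of all tested genes with one. The start used for Mt1 lies inside the annotated span of the gene (chr8:94178883-94180327), and so does its stretch. Mt1 is shown as the shortest stretch with a match (chr8:94179054-94179084, plus strand):
Mt1: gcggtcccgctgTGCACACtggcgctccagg
Among 14 iron genes 2 rose, 4 by totals alone, and 4 fell. Slc40a1, the iron exporter ferroportin, rose from 48.2 and 53.7 to 119 and 112 CPM (log2 fold change 1.18 ± 0.18, adjusted p = 0.000578). Hfe2, hemojuvelin, rose from 37.96 and 24.8 to 59.6 and 62.2 CPM (log2 fold change 0.96 ± 0.19, adjusted p = 0.00298). Hmox1, heme oxygenase 1, fell from 317 and 153 to 24.1 and 63.2 CPM (log2 fold change -2.43 ± 0.44, adjusted p = 0.00169). The hormone hepcidin, Hamp, which degrades ferroportin, had 2404 and 2157 CPM at 4 h and 799 and 1351 CPM at 24 h (log2 fold change -1.08 ± 0.35, adjusted p = 0.0394). The iron falls numbered 1 by totals alone and when 4 h replicate 1, 4 h replicate 2 or 24 h replicate 1 was left out, and 2 metal genes fell without 4 h replicate 1 or 24 h replicate 1. Mt1 had a log2 fold change of -4.08 with 24 h replicate 2 left out. Mt2 had a log2 fold change of -4.55 with 24 h replicate 2 left out. Hmox1 had a log2 fold change of -1.81 with 4 h replicate 1 left out and -3.32 with 24 h replicate 2 left out. Mt1 was not called without 4 h replicate 1 or 24 h replicate 1 (adjusted p up to 0.0913). Mt2 was not called without 4 h replicate 1 or 24 h replicate 1 (adjusted p up to 0.0896). Hamp was not called without 4 h replicates 1 or 2, 24 h replicate 1 or 168 h replicates 1 or 2 (adjusted p up to 0.172).

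Genes of other secreted liver proteins fell as well. Of 30 coagulation and complement genes 20 fell and 0 rose, with a median of -0.67. Mbl2, a mannose-binding lectin, had 357 and 379 CPM at 4 h and 149.8 and 140.2 CPM at 24 h (log2 fold change -1.34 ± 0.13, adjusted p = 2.73e-05). Pros1, protein S, had 145 and 138 CPM at 4 h and 75.04 and 73.5 CPM at 24 h (log2 fold change -0.93 ± 0.14, adjusted p = 0.000624). In both genes, as in every called gene, the pools of the 2 times did not overlap. Among 14 carrier genes and negative acute phase genes 9 fell and 0 rose (median -0.70). Alb, albumin, had 102635 and 111842 CPM at 4 h and 59202 and 48739 CPM at 24 h (log2 fold change -0.99 ± 0.21, adjusted p = 0.00511). Apoa1 had 11652 and 11354 CPM at 4 h and 6495 and 5635 CPM at 24 h (log2 fold change -0.92 ± 0.17, adjusted p = 0.00185). Serpina6, the corticosteroid-binding globulin, had 224 and 239 CPM at 4 h and 71.8 and 75.5 CPM at 24 h (log2 fold change -1.65 ± 0.18, adjusted p = 4.57e-05). Ttr and Rbp4 were not called (adjusted p = 0.0710 and 0.614). The scaling sets the size of these counts: by totals alone 6 coagulation and complement genes fell and 2 rose, and 5 carriers fell and 1 rose. Without 4 h replicate 1 the coagulation and complement falls numbered 9, and 9 with only the 4 libraries. Of 16 apolipoprotein genes 8 fell and 2 rose, a balance that totals alone turned to 2 falls and 4 rises, and the falls numbered 3, 2 and 4 without 4 h replicate 1, 4 h replicate 2 and 24 h replicate 1. Of the 2 rises, Apoc2 had 196 and 194 CPM at 4 h and 338 and 376 CPM at 24 h (log2 fold change 0.88, adjusted p = 0.00307). Apoa4 had 130.2 and 301 CPM at 4 h and 1997 and 458 CPM at 24 h (log2 fold change 2.51, adjusted p = 0.00389). Apoa4 had a log2 fold change of 3.24 with 4 h replicate 2 left out, 1.03 with 24 h replicate 1 left out and 3.17 with 24 h replicate 2 left out. Apoa4 was not called without 24 h replicate 1 (adjusted p = 0.0515).

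Lipid synthesis genes changed in both directions. Of 19 lipogenesis genes 9 fell and 4 rose. Srebf1, the transcription factor of the pathway, had 31.7 and 26.8 CPM at 4 h and 104 and 129 CPM at 24 h and rose (log2 fold change 1.99 ± 0.25, adjusted p = 0.000154). Scd1, the desaturase that makes oleate, had 13116 and 10078 CPM at 4 h and 1383 and 2262 CPM at 24 h and fell (log2 fold change -2.67 ± 0.36, adjusted p = 0.000227). Thrsp, a promoter of fatty acid synthesis, had 467 and 428 CPM at 4 h and 48.3 and 39.1 CPM at 24 h (log2 fold change -3.36 ± 0.40, adjusted p = 9.48e-05). Lpin1, a phosphatidate phosphatase, had 381 and 309.6 CPM at 4 h and 36.5 and 32.1 CPM at 24 h (log2 fold change -3.33 ± 0.41, adjusted p = 0.000132). All 3 were lower in both 24 h pools, as was every gene called lower. The elongase genes Elovl5 and Elovl6 fell, with log2 fold changes of -1.41 ± 0.23 and -1.53 ± 0.26, while Fasn had 297 and 155 CPM at 4 h and 103 and 134 CPM at 24 h and was not called (adjusted p = 0.179). Mid1ip1, a partner of Thrsp, rose (log2 fold change 1.85, adjusted p = 0.00146). Of 25 cholesterol synthesis genes 7 fell and 0 rose, among them Tm7sf2, which went from 69.7 and 59.4 to 28.4 and 29.6 CPM (log2 fold change -1.15, adjusted p = 0.00193), and Sqle, which went from 150.3 and 90.6 to 46.03 and 45.7 CPM (log2 fold change -1.39, adjusted p = 0.00566). The cholesterol falls numbered 1 without 4 h replicate 1, 3 without 24 h replicate 2 or by totals alone and 2 with only the 4 libraries, and the 9 lipogenic falls numbered 5 without 4 h replicate 1. The 4 lipogenic rises numbered 2 without 4 h replicate 2 or 24 h replicate 2. Mid1ip1 had a log2 fold change of 2.74 with 4 h replicate 1 left out. Sqle was not called without 4 h replicate 1 (adjusted p = 0.0678).

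**Figure D4:**
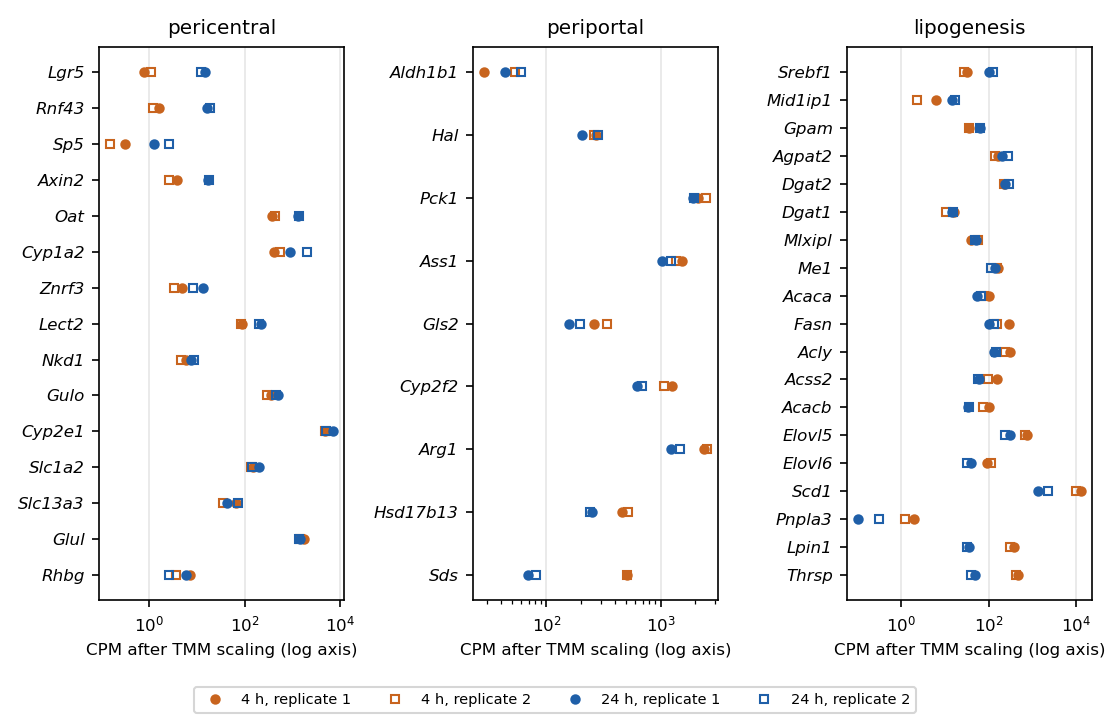
CPM (log axis) in each of the 4 libraries of the tested genes of the pericentral, periportal and lipogenesis lists, ordered by fitted log2 fold change; orange marks 4 h, blue 24 h, circles replicate 1 and squares replicate 2. Lgr5, Rnf43 and Axin2 lie to the right at 24 h, Sds, Hsd17b13 and Arg1 to the left, and Srebf1 and Scd1 change in opposite directions.

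Fatty acid oxidation was not moved in one direction. Of 36 genes of this list, which includes targets of PPAR alpha, 6 rose and 7 fell, shares of 16.7% and 19.4% beside 11.7% higher and 10.7% lower over all genes, and by totals alone 19 rose and 6 fell. Bdh1, an enzyme of ketone metabolism, had 63.3 and 72.8 CPM at 4 h and 198 and 166 CPM at 24 h (log2 fold change 1.42 ± 0.15, adjusted p = 4.94e-05). Plin2, a lipid droplet coat protein, had 1829 and 1414 CPM at 4 h and 510.4 and 492 CPM at 24 h (log2 fold change -1.69 ± 0.19, adjusted p = 6.99e-05). Ppargc1a, a coactivator of oxidative metabolism, went from 43.7 and 31.8 to 9.60 and 14.2 CPM (log2 fold change -1.66 ± 0.29, adjusted p = 0.00123). Fgf21, a hormone of fasting, fell (log2 fold change -4.03, adjusted p = 0.0116). Ppara rose (log2 fold change 0.99, adjusted p = 0.0198). Cyp4a14, a PPAR alpha target, had 34.6 and 252 CPM at 4 h and 1034 and 253 CPM at 24 h and was not called (adjusted p = 0.0743), with the pools of each time more than 4 times apart. The rises numbered 2 when 4 h replicate 1 or 24 h replicate 1 was left out or with only the 4 libraries. Fgf21 was not called without 4 h replicate 1 or 24 h replicate 2 (adjusted p up to 0.316). Ppara was not called without 4 h replicate 1 or 24 h replicate 1 (adjusted p up to 0.142).

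Gluconeogenesis, insulin signalling and glycogen genes changed. Of 13 gluconeogenesis genes 4 fell and 1 rose, by totals alone 4 and 4, and 0 rose without 4 h replicate 1 or 24 h replicate 2. Sds, serine dehydratase, had 508 and 503 CPM at 4 h and 68.6 and 81.3 CPM at 24 h (log2 fold change -2.75 ± 0.26, adjusted p = 2.39e-05). Tat, tyrosine aminotransferase, had 6377 and 5749 CPM at 4 h and 1560.1 and 2402 CPM at 24 h (log2 fold change -1.61 ± 0.21, adjusted p = 0.000164). Got1 had 791 and 692 CPM at 4 h and 230.3 and 227 CPM at 24 h (log2 fold change -1.70 ± 0.17, adjusted p = 3.45e-05). Pck1 and Pcx, which carry out the first steps, and Fbp1 were not called (adjusted p = 0.455, 0.428 and 0.276). In the insulin and FOXO list 7 of 14 genes fell and 1 rose, which totals alone turned to 4 falls and 5 rises. Igfbp1, a FOXO target and an early gene of regeneration, had 1669.7 and 1397 CPM at 4 h and 109 and 229.6 CPM at 24 h (log2 fold change -3.18 ± 0.40, adjusted p = 0.000143). The insulin receptor substrate genes moved apart. Irs1 rose from 2.87 and 8.42 to 29.4 and 23.1 CPM (log2 fold change 2.21 ± 0.33, adjusted p = 0.000457). Irs2 fell from 27.6 and 36.7 to 12.2 and 11.3 CPM (log2 fold change -1.45 ± 0.33, adjusted p = 0.00745). Of 10 glycogen genes 5 rose and 0 fell. The largest rise was that of Ppp1r3c, which targets protein phosphatase 1 to glycogen and had 18.98 and 18.6 CPM at 4 h and 150.5 and 123 CPM at 24 h (log2 fold change 2.87 ± 0.27, adjusted p = 2.04e-05). The log2 fold change largest in size in the list was negative, -4.35, and was not called. DESeq2 called 2 glycogen genes lower. The glycogen rises numbered 1 with only the 4 libraries, 2 without 4 h replicate 1 or 24 h replicate 1, and Gys2, glycogen synthase, was not called (adjusted p = 0.490). The insulin and FOXO falls numbered 3 without 4 h replicate 2 and 4 without 24 h replicate 2 or with only the 4 libraries. Igfbp1 had a log2 fold change of -3.85 with 24 h replicate 2 left out. Irs1 had a log2 fold change of 3.19 with 4 h replicate 2 left out. Irs2 was not called without 4 h replicate 2 (adjusted p = 0.0589).

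Amino acid handling was lower in more genes than it was higher. Of 35 urea cycle and amino acid genes 12 fell and 4 rose, but by totals alone 5 fell and 12 rose. Arg1, the last enzyme of the urea cycle, had 2399 and 2545 CPM at 4 h and 1231 and 1491 CPM at 24 h (log2 fold change -0.86 ± 0.16, adjusted p = 0.00171). Aass, an enzyme of lysine breakdown, had 1301 and 1194 CPM at 4 h and 494 and 369 CPM at 24 h (log2 fold change -1.53 ± 0.18, adjusted p = 8.56e-05). Tdo2, the first enzyme of tryptophan breakdown, had 1101 and 1794 CPM at 4 h and 687 and 432 CPM at 24 h (log2 fold change -1.37 ± 0.28, adjusted p = 0.00332). Cps1, the first enzyme of the urea cycle, had 2974 and 3169 CPM at 4 h and 4678 and 4202 CPM at 24 h and was not called (adjusted p = 0.0574). Of 17 amino acid transport and integrated stress response genes 6 fell and 0 rose. Slc38a2, a transporter of small neutral amino acids, had 544 and 711 CPM at 4 h and 106 and 129 CPM at 24 h (log2 fold change -2.42 ± 0.22, adjusted p = 1.90e-05). Chac1 had 13.6 and 7.02 CPM at 4 h and 0.626 and 1.03 CPM at 24 h (log2 fold change -3.61 ± 0.61, adjusted p = 0.00116). Asns, asparagine synthetase, was not called (adjusted p = 0.463). The 12 amino acid falls numbered 7 with only the 4 libraries, and the 4 rises 2 without 4 h replicate 2.

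Zonation lists moved apart. Hepatocytes around the central vein express genes driven by Wnt signalling, and those around the portal tract express enzymes of urea synthesis and gluconeogenesis. Of 15 pericentral genes 9 rose and 0 fell, with a median of 1.27. The rises were of 2 kinds. Regulators and targets of Wnt signalling rose from low levels: Rnf43, a ubiquitin ligase for Wnt receptors, had 1.60 and 1.25 CPM at 4 h and 16.5 and 18.9 CPM at 24 h (log2 fold change 3.63 ± 0.28, adjusted p = 5.70e-06). Lgr5, the R-spondin receptor, had 0.798 and 1.09 CPM at 4 h and 15.03 and 12.2 CPM at 24 h (log2 fold change 3.83 ± 0.43, adjusted p = 6.64e-05). Axin2 had 3.83 and 2.65 CPM at 4 h and 17.01 and 18.2 CPM at 24 h (log2 fold change 2.44 ± 0.38, adjusted p = 0.000625), against 9.10 CPM, 8.86 CPM and 4.12 CPM in sham replicate 1. Pericentral genes at higher levels rose too: Oat, ornithine aminotransferase, had 379 and 433 CPM at 4 h and 1281 and 1359.8 CPM at 24 h (log2 fold change 1.70 ± 0.15, adjusted p = 1.23e-05). Lect2 had 89.6 and 83.3 CPM at 4 h and 219.9 and 196 CPM at 24 h (log2 fold change 1.27 ± 0.15, adjusted p = 0.000112). Glul, glutamine synthetase, the classical pericentral enzyme, had 1777 and 1415 CPM at 4 h and 1474 and 1372 CPM at 24 h and was not called (adjusted p = 0.552), nor was Cyp2e1 (adjusted p = 0.279). Of 9 periportal genes 5 fell, 3 by totals alone, and 0 rose (median -0.75). The falls included Sds and Arg1 above and Hsd17b13, which had 458 and 519 CPM at 4 h and 250.5 and 241 CPM at 24 h (log2 fold change -0.99 ± 0.14, adjusted p = 0.000335).

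Transcription factors of liver identity rose in 10 of 19 cases and fell in 0, with a median of 0.74. Nr1i3, the xenobiotic receptor CAR, had 14.2 and 14.97 CPM at 4 h and 78.5 and 68.1 CPM at 24 h (log2 fold change 2.33 ± 0.21, adjusted p = 1.96e-05). Foxa1 had 3.83 and 6.40 CPM at 4 h and 28.6 and 19.2 CPM at 24 h (log2 fold change 2.22 ± 0.31, adjusted p = 0.000265). Tbx3, a Wnt target in liver, had 10.2 and 15.9 CPM at 4 h and 35.9 and 39.5 CPM at 24 h (log2 fold change 1.53 ± 0.28, adjusted p = 0.00166). Hnf4a, the central factor of hepatocytes, had 1079 and 1012 CPM at 4 h and 769 and 784 CPM at 24 h and was not called (log2 fold change -0.43, adjusted p = 0.0598). The rises numbered 6 with only the 4 libraries.

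Genes of drug and bile acid metabolism changed in both directions, several lists in shares near those of all genes. Of 35 cytochrome P450 genes 5 rose and 4 fell, and by totals alone 14 rose and 3 fell. In all 25.7% were called, near the 22.4% of all genes tested. Cyp2c70, which makes muricholic acids in mice, had 1881 and 1524 CPM at 4 h and 385 and 394 CPM at 24 h (log2 fold change -2.13 ± 0.16, adjusted p = 3.66e-06). Cyp2b10, the classical target of CAR, had 212 and 312 CPM at 4 h and 33.5 and 54.9 CPM at 24 h and fell (log2 fold change -2.57 ± 0.36, adjusted p = 0.000305) while Nr1i3, the gene of CAR, rose. Cyp1a2 had 422 and 558 CPM at 4 h and 896 and 2054 CPM at 24 h (log2 fold change 1.59 ± 0.29, adjusted p = 0.00192). Of 16 bile acid synthesis genes 2 rose and 3 fell (31.25% called against 22.4% of all genes), and by totals alone 7 rose and 1 fell. Cyp7a1, the rate-limiting enzyme, had 5.42 and 5.77 CPM at 4 h and 51.3 and 24.995 CPM at 24 h (log2 fold change 2.77 ± 0.80, adjusted p = 0.0242). Cyp27a1, of the alternative pathway, had 509 and 394 CPM at 4 h and 183 and 219 CPM at 24 h (log2 fold change -1.17 ± 0.22, adjusted p = 0.00250). Of 17 bile and anion transporters 2 rose and 0 fell, a share near the 11.7% of all genes, and 8 rose by totals alone. The rises included that of Abcb4, the phospholipid exporter (log2 fold change 1.03, adjusted p = 0.000604), while the bile salt export pump gene Abcb11 and the uptake gene Slc10a1 were not called (adjusted p = 0.621 and 0.962). Of 32 conjugation genes 5 rose and 4 fell (28.1% called against 22.4% of all genes), and by totals alone 14 rose and 1 fell. The rises were led by Gstt2 (log2 fold change 1.62, adjusted p = 0.000200) and Ugt2b35 (log2 fold change 1.40, adjusted p = 0.000249). With 4 h replicate 2 left out bile acid synthesis held 0 rises, and with 24 h replicate 1 left out it held 1. The conjugation falls numbered 0 without 4 h replicate 2 or 24 h replicate 2 and 2 without 4 h replicate 1, where 3 conjugation genes rose, and 7 cytochrome P450 genes fell without 24 h replicate 1. Cyp1a2 had a log2 fold change of 0.83 with 24 h replicate 2 left out. Cyp7a1 had a log2 fold change of 2.10 with 24 h replicate 1 left out. Cyp7a1 was not called without 4 h replicates 1 or 2 or 24 h replicate 1 (adjusted p up to 0.117).

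Clock genes differed between the times, and the hour of collection is not known. Of 18 tested 8 rose and 2 fell. Per2 had 2.07 and 1.40 CPM at 4 h and 14.5 and 8.85 CPM at 24 h (log2 fold change 2.74 ± 0.52, adjusted p = 0.00233). Tef, a PAR bZIP factor of the clock's output, had 7.82 and 6.24 CPM at 4 h and 27.6 and 26.1 CPM at 24 h (log2 fold change 1.93 ± 0.18, adjusted p = 2.20e-05). Hlf, another such factor, had 16.6 and 18.4 CPM at 4 h and 70.03 and 52.4 CPM at 24 h (log2 fold change 1.81 ± 0.20, adjusted p = 5.80e-05). The pools of the 2 times did not overlap in these genes, as in every called gene. Nfil3, a repressor of the same promoters, had 117 and 115 CPM at 4 h and 32.1 and 46.9 CPM at 24 h and fell (log2 fold change -1.55 ± 0.20, adjusted p = 0.000160). Arntl, the gene of BMAL1, had 31.4 and 36.5 CPM at 4 h and 32.98 and 31.2 CPM at 24 h and was not called (adjusted p = 0.715). The rises numbered 3 with only the 4 libraries and 5 without 4 h replicate 1 or 24 h replicate 1. The E-box CACGTG was found in 4 of 15 clock genes with a promoter (26.7%) and in 9.88% of all tested genes with one.

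Ribosome and RNA genes were lower in a minority. Of 39 ribosome biogenesis genes 12 fell and 0 rose (median -0.29), among them Heatr1, which went from 94.3 and 61.3 to 31.7 and 30.3 CPM (log2 fold change -1.32, adjusted p = 0.000794), and Nop58, which went from 70.8 and 103 to 35.3 and 19.5 CPM (log2 fold change -1.66, adjusted p = 0.00305), while nucleolin, Ncl, was not called (adjusted p = 0.889). This direction turned by totals alone, with 10 rises and 5 falls, and so did that of the 24 splicing genes, from 1 rise and 6 falls to 8 rises and 1 fall. The ribosome biogenesis falls numbered 5 and the splicing falls 1 with only the 4 libraries, and the splicing falls numbered 3, 2 and 1 without 4 h replicate 1, 4 h replicate 2 and 24 h replicate 2. Of 31 proteasome genes 2 rose with TMM and 24 by totals alone, and 0 rose without 4 h replicate 1, 4 h replicate 2 or 24 h replicate 1. Of 23 genes of endoplasmic reticulum stress 1 rose and 2 fell, but 9 rose and 0 fell by totals alone, 0 rose and 4 fell without 24 h replicate 1, 0 rose and 1 fell without 4 h replicate 1, and 0 rose without 4 h replicate 2. Hspa5, the chaperone BiP, was not called (adjusted p = 0.614). Among 17 heat shock genes 4 rose and 1 fell, and by totals alone 10 rose and 0 fell. Leaving out 4 h replicate 1 gave 2 rises and 0 falls. The fall was also not called without 24 h replicate 1. The rises included that of Hsp90ab1, which went from 786 and 929 to 1487 and 1483 CPM (log2 fold change 0.79 ± 0.16, adjusted p = 0.00364).

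Of 15 tubulin and actin genes 8 rose and 3 fell (Tpm4, Actg1 and Tubb6). Tubb5 had 49.4 and 45.7 CPM at 4 h and 194 and 238 CPM at 24 h (log2 fold change 2.18 ± 0.16, adjusted p = 3.66e-06). Tuba4a had 72.7 and 66.6 CPM at 4 h and 208 and 208 CPM at 24 h (log2 fold change 1.58 ± 0.13, adjusted p = 6.37e-06), while Actb had 1888 and 1125 CPM at 4 h and 1272 and 1942 CPM at 24 h and was not called (adjusted p = 0.820). The 3 falls numbered 0 by totals alone, with only the 4 libraries and when 4 h replicate 1 or 24 h replicate 1 was left out. Of 15 growth factor and receptor genes 4 rose and 3 fell, by totals alone 5 and 1, and 2 rose without 4 h replicate 1, 4 h replicate 2 or 24 h replicate 2. Egfr, the receptor of EGF, had 1210.3 and 1094 CPM at 4 h and 592 and 603 CPM at 24 h (log2 fold change -0.95, adjusted p = 0.0158). Tgfa, the gene of a ligand of this receptor, had 25.4 and 13.3 CPM at 4 h and 37.99 and 42.4 CPM at 24 h (log2 fold change 1.06, adjusted p = 0.0102). Klb, the co-receptor of FGF hormones, had 5.58 and 4.06 CPM at 4 h and 22.4 and 17.5 CPM at 24 h (log2 fold change 2.05, adjusted p = 0.000164). In the list of TGF beta and activin 5 of 20 genes fell and 3 rose. The activin subunit genes did not move together: Inhbb fell from 59.3 and 40.7 to 8.45 and 13.1 CPM (log2 fold change -2.21 ± 0.42, adjusted p = 0.00239). Inhbc rose from 42.6 and 42.9 to 117 and 106 CPM (log2 fold change 1.38 ± 0.18, adjusted p = 0.000182). Fst, the activin antagonist follistatin, fell from 21.5 and 37.7 to 4.59 and 5.35 CPM (log2 fold change -2.57 ± 0.40, adjusted p = 0.000585). Without 4 h replicate 1 or 24 h replicate 1 the rises of this list numbered 1. Tgfa was not called without 4 h replicate 2 or 24 h replicate 2 (adjusted p up to 0.0935). Egfr was not called without 4 h replicate 1 (adjusted p = 0.0792).

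Several lists below had shares near the 22.4% called over all genes tested. The shares were 28.6% for growth hormone and IGF genes, 19.0% for glycolysis, 22.2% for polyamine and 25% for heme synthesis genes. They were 18.75% for male-biased, 10% for female-biased and 3.70% for interferon genes, and 33.3% for NRF2 targets. Of 14 growth hormone and IGF genes 3 fell and 1 rose, and by totals alone 4 rose. Socs2, the feedback inhibitor of growth hormone signalling, had 105 and 114 CPM at 4 h and 21.8 and 13.1 CPM at 24 h (log2 fold change -2.65 ± 0.48, adjusted p = 0.00182). Igfbp1, described above, and Igfbp3 (log2 fold change -1.68, adjusted p = 0.00223) fell as well. Igfals, the partner of IGF in plasma, had 31.3 and 40.4 CPM at 4 h and 81.6 and 88.2 CPM at 24 h (log2 fold change 1.24 ± 0.24, adjusted p = 0.00235). Of 16 genes known to be higher in male liver 1 rose and 2 fell, with Selenbp2 from 201 and 223 to 40.5 and 33.8 CPM (log2 fold change -2.51 ± 0.49, adjusted p = 0.00279), and by totals alone 3 rose and 1 fell; of 10 genes known to be higher in female liver 0 rose and 1 fell. Among 21 glycolysis genes 3 rose and 1 fell, and by totals alone 10 rose. Pfkfb3, which makes the activator of phosphofructokinase, had 127 and 112 CPM at 4 h and 38.6 and 24.4 CPM at 24 h (log2 fold change -1.92 ± 0.25, adjusted p = 0.000181). Slc2a2, the glucose transporter of hepatocytes, had 61.4 and 60.2 CPM at 4 h and 161 and 137 CPM at 24 h (log2 fold change 1.29 ± 0.19, adjusted p = 0.000448). Sat1, which breaks down polyamines, had 128 and 113 CPM at 4 h and 40.3 and 44.3 CPM at 24 h (log2 fold change -1.51 ± 0.20, adjusted p = 0.000233), and was the 1 fall among 9 polyamine genes, of which 1 rose, 5 by totals alone. Cpox, an enzyme of heme synthesis, had 95.1 and 145 CPM at 4 h and 341 and 253 CPM at 24 h (log2 fold change 1.31 ± 0.21, adjusted p = 0.000780), 1 of 2 rises among 8 heme synthesis genes, of which 4 rose by totals alone. With 4 h replicate 1 or 24 h replicate 2 left out 1 heme synthesis gene rose, and the polyamine rise was not called when 4 h replicate 1 or 24 h replicate 1 was left out. Of 15 NRF2 targets 4 rose and 1 fell (Hmox1, above), and by totals alone 8 rose. Of 27 interferon genes 1 rose, 6 by totals alone, and 0 fell (Ddx58, log2 fold change 1.09, adjusted p = 0.00482). The male-biased calls numbered 0 rises and 1 fall without 4 h replicate 1 and 4 falls without 24 h replicate 1, and the NRF2 rises numbered 1 without 4 h replicate 2 and 2 without 24 h replicate 2. Ddx58 was not called without 24 h replicate 2 (adjusted p = 0.0536).

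Markers of other cells were measured beside these lists. The 14 matched neutrophil markers summed to 169.7 and 70.2 CPM at 4 h and to 9.18 and 67.3 CPM at 24 h, and 4 of them (Ngp, Camp, Ltf and Mpo) had 0 reads in 24 h replicate 1. Of 13 tested 2 fell, Cxcr2 (log2 fold change -1.57, adjusted p = 0.00238) and Il1r2 (log2 fold change -2.80, adjusted p = 0.0439), and 7 fell without 24 h replicate 2 and 1 without 4 h replicate 1 or 24 h replicate 1. The 12 Kupffer cell markers summed to 1111 and 893 CPM at 4 h and 697 and 1390 CPM at 24 h, and the 6 monocyte markers to 45.5 and 26.8 and to 7.31 and 50.6 CPM. Of the Kupffer markers Clec4f fell (log2 fold change -0.66, adjusted p = 0.0113). Marco had 125 and 64.7 CPM at 4 h and 123 and 451 CPM at 24 h (adjusted p = 0.0502), and 6 Kupffer markers fell without 24 h replicate 2, 2 rose and 1 fell without 24 h replicate 1, and 2 rose and 0 fell by totals alone. The 5 genes of antigen presentation were lower in both 24 h pools, summing to 225 and 163 and to 48.3 and 92.0 CPM, with 3 called, 1 by totals alone, 0 without 4 h replicate 1 or 24 h replicate 1 and 1 without 4 h replicate 2. Over all genes tested 28.7% had both 24 h pools below both 4 h pools, and 10.7% were called lower. Sinusoidal endothelial markers summed to 530.0 and 520.2 and to 417 and 440.0 CPM, stellate cell markers to 424 and 409 and to 319 and 371 CPM and erythroid genes to 288 and 283 and to 159 and 189 CPM. Within the endothelial list Lyve1 had 115 and 112 CPM at 4 h and 21.8 and 22.7 CPM at 24 h (log2 fold change -2.35 ± 0.26, adjusted p = 5.19e-05), while Stab2 had 57.3 and 58.8 CPM at 4 h and 60.7 and 61.8 CPM at 24 h (adjusted p = 0.795). The 8 matched bile duct markers summed to 164.3 and 100.9 CPM at 4 h and to 48.9 and 69.7 CPM at 24 h. Of 6 tested 1 rose and 2 fell, and by totals alone 2 rose and 1 fell. Their log2 fold changes ran from -1.98 to 1.79 (median -0.72). The lowest was that of Sox9, of bile duct cells and reactive hepatocytes. Sox9 had 59.3 and 33.8 CPM at 4 h and 7.72 and 15.8 CPM at 24 h (log2 fold change -1.98 ± 0.34, adjusted p = 0.00115). Lymphocyte, mesothelium and pancreas markers summed to at most 7.66 CPM in any of the 4 libraries. The neutrophil, monocyte, Kupffer and antigen presentation sums moved with the NF-kB and acute phase genes between the 24 h pools, and their part in those results was not tested. Sox9 had a log2 fold change of -2.63 with 24 h replicate 2 left out. Il1r2 was not called without 2 h replicate 1, 4 h replicate 1, 24 h replicates 1 or 2 or 168 h replicates 1 or 2 (adjusted p up to 0.262). Clec4f was not called without 4 h replicate 1 (adjusted p = 0.0522).

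The 24 h pools differed from each other in whole lists. All 13 tested neutrophil markers, all 21 NF-kB genes, 24 of 27 interferon genes and 28 of 30 acute phase genes were higher in replicate 2, with median log2 differences of 2.38, 1.35, 0.70 and 0.55. In the other direction 33 of 36 genes of fatty acid oxidation and all 16 tested male-biased liver genes were higher in replicate 1, with medians of -0.40 and -0.67. Over all tested genes 6406 were higher in replicate 2 and 5775 in replicate 1 (median 0.03), and the replication genes split 21 to 18 (median 0.10). Among tested genes with a proper name and a mean of at least 10 CPM over the 4 libraries, a base chosen after a ranking by the 24 h mean had been seen, the largest differences were those of Cxcl13, a B cell chemokine (3.97 and 79.7 CPM), Akr1b7 (3.13 and 60.5 CPM), S100a8, a neutrophil calcium-binding protein (0.626 and 14.3 CPM), Cyp1a1, Irak3 (0.731 and 12.96 CPM) and Il1rn (1.77 and 25.6 CPM). All 6 were higher in replicate 2. The SD of the log2 differences between pools over all tested genes was 0.53 at 4 h and 0.59 at 24 h. No label separates the 2 pools, and the difference is described here without a test.

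**Figure D5:**
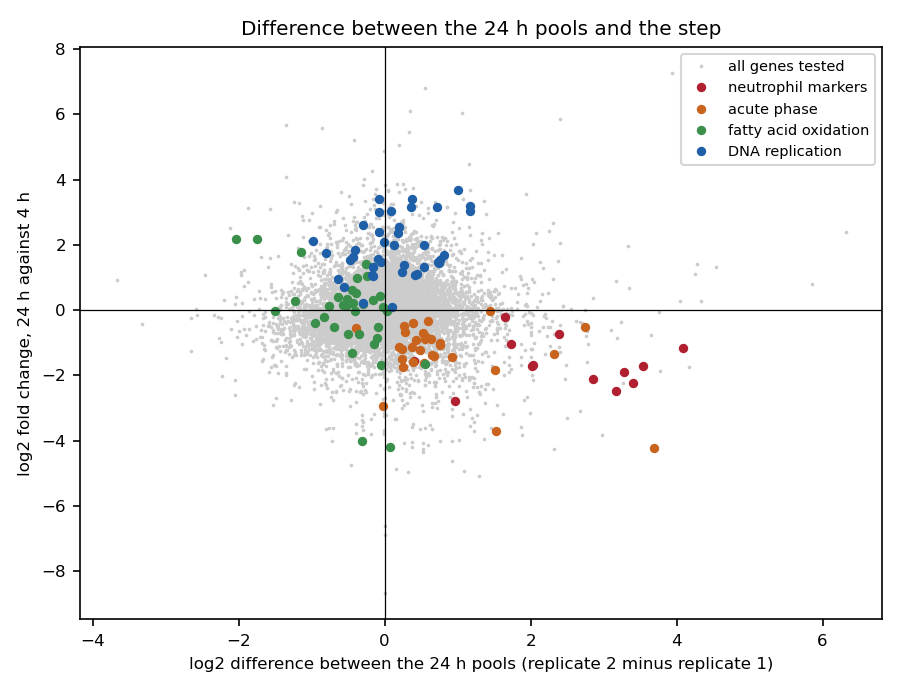
Log2 fold change of 24 h against 4 h (vertical) against the log2 difference between the 24 h pools, replicate 2 minus replicate 1 (horizontal), for all 12181 tested genes (grey) and 4 lists. Neutrophil markers lie to the right and below 0, fatty acid oxidation genes mostly to the left, and DNA replication genes above 0 and around the middle.

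The step was set beside libraries that share none of its own, the difference of the 48 h and 2 h groups. Of the genes called higher at 24 h, 80.6% had a positive difference between 48 h and 2 h, against 49.5% of all tested genes, and of those called lower 87.1% had a negative one, against 50.5%. The replication list had a median of 2.05 there, mitosis 4.72, immediate early genes -1.29 and acute phase genes -0.78, while glycogen genes, with a median of 0.55 in the step, had -0.52. Ppp1r3c, the glycogen gene with the largest rise, had 23.95 and 21.7 CPM at 2 h and 43.7 and 41.7 CPM at 48 h, so that its 24 h level stood above both. Cyp1a1 had 0.709 and 0.545 CPM at 2 h and 0.768 and 2.07 CPM at 48 h, and in these 16 libraries its level passed 10 CPM only at 24 h.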

How the data were processed

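RNA of 3 mice was pooled per library, with 2 pools in each of 9 groups. The deposited tables give a read count per gene and an RPKM value; per the file headers the counts are raw, and the authors' RPKM values divide them by gene length and library total. Genome build mm10 is named in the submitters' processing notes; no source used here names the aligner, counter or strand setting. Tables of 16 libraries were complete (7773851 to 9162284 reads of named genes, lowest count 1), so a gene not listed had 0 reads; the tables of sham replicate 2 and 0.5 h replicate 1 list only genes with many reads and entered only 1 alternative. Rows with no gene name held at most 0.0324% of the reads and were left out.

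Counts were analysed with edgeR 4.0.16 (TMM, quasi-likelihood F test, 1 coefficient per group, 7 residual degrees of freedom, biological coefficient of variation 0.166) on genes with at least 1.16 CPM in at least 2 libraries and 15 reads in all, with Benjamini-Hochberg adjustment at 0.05. SE is the log2 fold change divided by the square root of F. Checked on simulated data for 24 h against 4 h (12181 genes, 200 changed), the test called 145 genes, 8 of them falsely, and found 49% of the genes changed 2-fold and 88% of those changed 4-fold. The simulated levels followed library totals, rises and falls were equal in number, and the groups differed in no other gene. The step called 22.4% of genes, with TMM factors from 0.776 to 1.12 in its 4 libraries, so these rates need not hold for it. Nothing in the labels says that replicate numbers pair pools, and correlations of same-numbered deviations ran from -0.36 to 0.29, so no pairing was used. Alternatives used DESeq2 1.42.0 and limma 3.58.1.

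Members and lists (59 lists) were chosen with earlier results of these data known. Named genes were the 15 largest rises and falls with a mean of at least 10 CPM, up to 6 called members (smallest p first) and 3 members not called (highest CPM first) of each list, and the 6 genes that differed most between the 24 h pools. Genes named outside this rule after their values were seen include Pcna, Rrm2, Ccnb1, Cdc20, Cdk1, Socs3, Saa1, Lcn2, Tyk2, Dusp6, Ube2s, Fgf21, Ppara, Mid1ip1, Tpm4, Actg1, Tubb6, Ngp and Mpo, and the promoters shown. Promoters are RefSeq's (GRCm38.p6). Named genes leave out 4 that are not reported here but remain in the counts.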

Additional observations from a re-analysis of the deposited data

How the results depend on the processing

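The number of genes called depended most on scaling and on the libraries used. By library totals alone 5087 genes were called (4577 higher, 510 lower), by limma on log2(RPKM + 1) 5034 (4500 higher, 534 lower) and on log2(RPKM + 0.1) 5157 (4643 higher, 514 lower); neither RPKM alternative carries TMM factors, and with totals alone the median gene moved by 0.45. With only the 4 libraries 1270 were called (628 higher, 642 lower), with fewer samples in the fit, and with all 18 libraries, on the 4905 genes that the short tables have in common, 1693 (859 higher, 834 lower). DESeq2, RLE factors, limma on log2 CPM, no filter and a filter of 10 CPM gave 2417 to 2901 calls. Leaving out each library in turn gave 1666 to 2772 calls, 848 to 1445 higher and 818 to 1492 lower; without 24 h replicate 1 41.8% of calls were higher.

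With the replicate number as a block, 2714 genes were called (1379 higher, 1335 lower); the numbers are not known to pair the pools. With the numbers of the 4 h pools crossed, an alternative added after seeing the data, 3175 genes were called.

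Of 297 named genes called, 165 were called under every alternative run. Directions reversed for 8 named genes, with log2 fold changes by totals alone, log2(RPKM + 1) and log2(RPKM + 0.1) of 0.45, 0.44 and 0.45 for Klf15, 0.40, 0.37 and 0.40 for Arntl, 0.43, 0.43 and 0.43 for Serpind1, 0.44, 0.44 and 0.44 for Apoc4, 0.020, 0.022 and 0.023 for Srsf2 and 0.43, 0.42 and 0.43 for Hnrnpk. Mgst1 reversed by totals alone (0.44), and Stat2 by totals alone (0.44) and log2(RPKM + 0.1) (0.43). Depth limits genes of a few reads: 3 reads are 0.342 to 0.384 CPM in the 4 libraries.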
